A study of Mus musculus with 6 samples.

Results

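The 10 genes described here, Axin2, Lgr5, Rnf43, Znrf3, Tbx3, Oat, Slc1a2, Rhbg, Lect2 and Tcf7l2, are expressed around the central vein of the liver lobule or act there in Wnt signaling. They were taken by gene symbol from the liver expression table, in which all 10 were found among 28880 genes, and each matched 1 row. Liver RNA came from 3 acute ethanol-exposed and 3 control mice, all male, wild type, C57BL/6J and 6 to 8 weeks old. The ethanol-exposed mice had gone without food for 12 h before 50% ethanol was given once by mouth at 6 g/kg, and their livers were removed 24 h afterwards. The control mice received no ethanol, and the labels do not state whether they were fasted or gavaged, so ethanol, fasting and handling cannot be told apart.

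In the liver, endothelial cells of the central vein release Wnt ligands and R-spondins that act on the neighbouring hepatocytes. A Wnt ligand bound to Frizzled and LRP receptors stabilises beta-catenin, which enters the nucleus and activates target genes together with TCF factors. This pericentral program includes glutamine synthesis, ammonium handling and drug metabolism, and it also contains the inhibitors AXIN2, RNF43 and ZNRF3, which feed back on the pathway. R-spondins, bound by LGR receptors, remove RNF43 and ZNRF3 from the cell surface and thereby strengthen the signal.

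Between 60514417 and 74210869 reads per mouse were counted on genes. Levels are given as CPM, read counts scaled to sequencing depth and TMM normalized (factors of 0.768 to 0.836 in ethanol-exposed and 1.26 to 1.27 in control mice), and were compared with edgeR (quasi-likelihood, two-sided, Benjamini-Hochberg adjustment) over 16717 genes, all 10 members included. Genes were called DEGs at adjusted p < 0.05 where the log2 ratio of ethanol-exposed to control mice (log2FC) was beyond 1 or -1. By their titles the libraries are separate samples, and the labels used here state no relation between the mice, so p-values measure the spread between these samples. Lower genes made up 57.0% of all DEGs, but 86.4% with library size alone, which moved the median over all genes from -0.04 to -0.71 on the log2 scale, and 80.7% or 87.1% with limma on log2(FPKM + 1) or log2(FPKM + 0.1). On the second principal component (14.8% of the variance) ethanol replicate 3 lay at -53.7 and the other ethanol-exposed mice at 19.9 and 30.5. The tissue label was checked on 10 hepatocyte markers, whose summed level was 155900 to 161500 CPM in ethanol-exposed and 88480 to 99520 CPM in control mice. Of 10 sinusoidal endothelial markers 2 were upregulated and 4 downregulated, with sums of 129.9 to 207.9 against 174.5 to 190.6 CPM. Of 6 neutrophil markers 4 were tested and all 4 were upregulated (2.12 to 12.1 against 0.171 to 0.401 CPM, with Ly6g and Mpo at or near 0), as were 3 of the 4 erythroid markers tested. The 9 central vein endothelial markers summed to 23.0 to 61.7 against 23.8 to 32.6 CPM, with 1 upregulated and 1 downregulated, and the 6 T cell markers, of which 3 were tested and 1 was downregulated, to 0.556 to 0.770 against 2.05 to 2.76 CPM. Of all genes tested, 10.4% were upregulated and 13.8% downregulated. The part of these cell types in the results was not tested, and in whole liver fewer cells of a type and less RNA per cell cannot be told apart.

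The promoters of members that fell are shown beside those of members that did not, since TCF factors bind DNA at short A/T-rich words ending in CAAAG. RefSeq (GRCm38.p6) gave windows from 250 bases before to 50 bases after an annotated start for 6 of the 10 genes, Axin2, Rnf43, Tcf7l2, Oat, Slc1a2 and Lect2. Rnf43 and Tcf7l2 each had an upstream and a downstream window, so a window need not lie at the first start of its gene. The 4 words searched on both strands were AACAAAG (found in 5.85% of all 32851 windows), ATCAAAG (in 3.73%), TACAAAG (in 3.63%) and TTCAAAG (in 5.14%), and 16.9% of the windows held at least 1 of them. Printed 5′ to 3′ on the strand of the gene, with matches in capitals, are Axin2 (chr11:108920099-108920398, plus strand), the upstream window of Rnf43 (chr11:87662837-87663136, plus strand), the downstream window of Tcf7l2 (chr19:55895071-55895370, plus strand), Slc1a2 (chr2:102706188-102706487, plus strand) and Lect2 (chr13:56548489-56548788, minus strand).
Axin2: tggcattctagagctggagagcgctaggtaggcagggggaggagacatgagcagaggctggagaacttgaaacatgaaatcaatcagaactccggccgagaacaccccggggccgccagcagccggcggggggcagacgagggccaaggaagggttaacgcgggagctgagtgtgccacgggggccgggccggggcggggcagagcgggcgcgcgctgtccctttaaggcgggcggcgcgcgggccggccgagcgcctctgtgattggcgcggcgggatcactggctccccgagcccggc
Rnf43: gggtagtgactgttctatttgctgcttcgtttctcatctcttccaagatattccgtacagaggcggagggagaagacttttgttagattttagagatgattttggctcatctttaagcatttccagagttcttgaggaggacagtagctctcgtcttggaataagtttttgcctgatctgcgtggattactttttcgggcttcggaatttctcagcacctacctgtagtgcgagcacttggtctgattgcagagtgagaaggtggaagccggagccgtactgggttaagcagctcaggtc
Tcf7l2: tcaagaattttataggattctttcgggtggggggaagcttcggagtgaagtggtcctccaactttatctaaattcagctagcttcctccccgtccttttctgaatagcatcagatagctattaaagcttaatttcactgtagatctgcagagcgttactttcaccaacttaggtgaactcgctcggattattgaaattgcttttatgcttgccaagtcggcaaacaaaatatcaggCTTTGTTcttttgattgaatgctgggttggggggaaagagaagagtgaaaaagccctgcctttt
Slc1a2: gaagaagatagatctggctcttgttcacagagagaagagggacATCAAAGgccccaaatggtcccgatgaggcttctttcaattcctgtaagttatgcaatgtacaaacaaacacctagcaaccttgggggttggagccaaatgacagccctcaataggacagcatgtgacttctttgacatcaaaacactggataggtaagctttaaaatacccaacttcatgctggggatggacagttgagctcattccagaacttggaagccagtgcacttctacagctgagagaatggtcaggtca
Lect2: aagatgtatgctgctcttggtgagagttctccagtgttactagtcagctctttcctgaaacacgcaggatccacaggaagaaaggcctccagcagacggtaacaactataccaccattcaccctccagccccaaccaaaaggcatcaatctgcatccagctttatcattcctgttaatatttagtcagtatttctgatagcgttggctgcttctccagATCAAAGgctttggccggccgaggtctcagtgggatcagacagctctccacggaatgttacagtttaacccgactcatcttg
Of the 8 windows of members 3 held a word (background 16.9%), and DNA outside the windows was not searched. No word was found in the windows of Axin2, Oat or Rnf43, which has a second window, or in the upstream window of Tcf7l2. Slc1a2 and Lect2 each held ATCAAAG, beginning 207 and 32 bases before the start used for the window. The downstream window of Tcf7l2 held AACAAAG on the opposite strand, 14 bases before its downstream start.

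Acute ethanol exposure was accompanied by lower RNA of 6 of the 10 pericentral Wnt target genes, namely Lgr5, Rnf43, Axin2, Znrf3, Tcf7l2 and Tbx3 (adjusted p under 0.05, edgeR's quasi-likelihood test), where 21.5% of all genes tested were lower at this threshold. Of these, Lgr5, Rnf43 and Axin2 were downregulated DEGs (background 13.8%). Slc1a2 was the only upregulated DEG (background 10.4%), and Oat, Rhbg and Lect2 did not pass. The 3 ethanol-exposed mice lay below all 3 control mice for the same 6 genes (background 31.0%) and above them for Slc1a2 (background 28.0%). The median log2FC was -0.81 over the 10 genes and -0.04 over all genes tested. Without control replicate 1 or control replicate 3, only Lgr5, Rnf43 and Axin2 passed the adjusted p among the 6 lower genes, a count of 3. The share of all genes at this threshold is not given for these fits. With ethanol replicate 1, ethanol replicate 3 or control replicate 2 left out, 4 members were downregulated DEGs (background 11.9%, 16.5% and 10.1%).

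**Figure D1:**
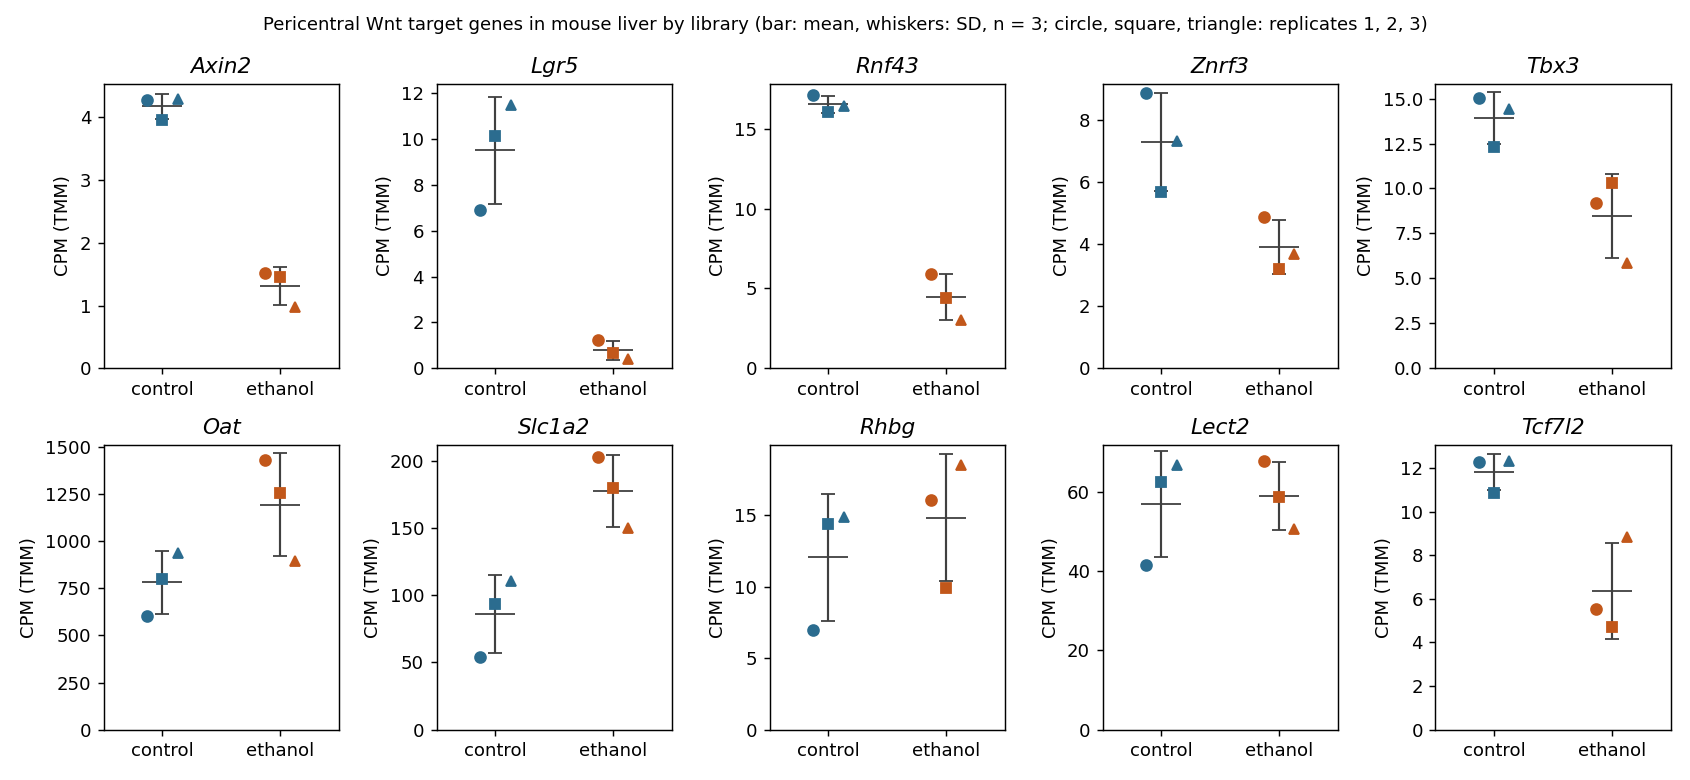
TMM-normalized CPM of the 10 genes in each library, with 3 control and 3 ethanol-exposed mice per panel, the mean as a bar and the SD as whiskers, and an axis from 0 in every panel. The groups do not overlap for Axin2, Lgr5, Rnf43, Znrf3, Tbx3 and Tcf7l2, which are lower, and for Slc1a2, which is higher, in ethanol-exposed mice.

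Lgr5 (ENSMUSG00000020140, chromosome 10, 115286216 to 115423685 in the coordinates of the deposited table) encodes a receptor for R-spondins that marks the hepatocytes nearest the central vein. It was at 1.25, 0.654 and 0.422 CPM in ethanol-exposed mice and at 6.93, 10.1 and 11.5 CPM in control mice. Even the lowest control mouse was several times above the highest ethanol-exposed mouse. The fall was 12.2-fold (log2FC -3.61 ± 0.42 SE, edgeR adjusted p = 0.000895), and only 1.56% of the genes tested had a log2 fold change as low. It rested on 72, 40 and 23 reads in ethanol-exposed and 650, 772 and 945 reads in control mice. Relative to the mean log2 CPM of the control mice, the 3 ethanol-exposed mice were at -2.89, -3.83 and -4.46. With each library left out in turn the log2 fold change stayed between -4.13 and -3.31.

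Axin2, Rnf43 and Znrf3, the 3 feedback inhibitors among the members, were lower in ethanol-exposed mice. Axin2 (ENSMUSG00000000142, chromosome 11, 108811175 to 108841609) encodes a scaffold of the beta-catenin destruction complex and is a widely used reporter of Wnt activity. It was at 1.51, 1.46 and 0.971 CPM in ethanol-exposed mice and at 4.27, 3.95 and 4.30 CPM in control mice. The control mice lay close together and well above each ethanol-exposed mouse, a 3.17-fold fall (log2FC -1.67 ± 0.25 SE, edgeR adjusted p = 0.00208).

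Rnf43 (ENSMUSG00000034177, chromosome 11, 87553548 to 87625366) encodes a membrane ubiquitin ligase that removes Frizzled receptors. Its level was 5.93, 4.38 and 3.02 CPM in ethanol-exposed mice and 17.1, 16.1 and 16.4 CPM in control mice. The groups were far apart, and the log2 fold change was -1.90 ± 0.24 (SE, edgeR adjusted p = 0.00122). Within Rnf43 lies 1110028F11Rik on the same strand, with 15 to 42 reads in ethanol-exposed and 51 to 63 in control mice, against 165 to 341 and 1224 to 1607 reads on Rnf43.

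Znrf3 (ENSMUSG00000041961, chromosome 11, 5226324 to 5394847), the paralog of Rnf43 with the same function, was at 4.88, 3.19 and 3.70 CPM in ethanol-exposed mice and at 8.88, 5.70 and 7.33 CPM in control mice. The groups did not overlap, but control replicate 2 was only slightly above ethanol replicate 1. The fall of 0.90 on the log2 scale (log2FC -0.90 ± 0.24 SE, edgeR adjusted p = 0.0221) stayed short of the fold threshold. It became a DEG without control replicate 2 (-1.05) or ethanol replicate 1 (-1.08), and it did not pass without control replicate 1 (adjusted p = 0.0842), control replicate 3 (0.0705) or ethanol replicate 2 (0.0596). Whether the falls of Znrf3 and Rnf43 differ in size was not tested.

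Both transcription factors among the members had lower levels. Tcf7l2 (ENSMUSG00000024985, chromosome 19, 55730252 to 55921685), the main TCF partner of beta-catenin in hepatocytes, was at 5.53, 4.69 and 8.85 CPM in ethanol-exposed mice and at 12.3, 10.9 and 12.3 CPM in control mice. Ethanol replicate 3 was the nearest to the control mice. The log2 fold change was -0.89 ± 0.25 (SE, edgeR adjusted p = 0.0231), and without ethanol replicate 3 it was -1.20, a DEG. Without ethanol replicate 1 or any control replicate the adjusted p was 0.0566 to 0.0772.

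Tbx3 (ENSMUSG00000018604, chromosome 5, 119808734 to 119822789), a T-box repressor induced by beta-catenin in liver, was at 9.21, 10.3 and 5.86 CPM in ethanol-exposed mice and at 15.0, 12.3 and 14.4 CPM in control mice. Here ethanol replicate 3 was the lowest library, and the other 2 were nearer to the control mice. The log2 fold change of -0.72 ± 0.22 (SE, edgeR adjusted p = 0.0360) was the smallest among the 6 falls. It was -0.50 without ethanol replicate 3, and the adjusted p was 0.0656 to 0.113 without ethanol replicate 1 or any control replicate. The antisense gene Tbx3os1 overlaps the start of Tbx3 with 228 to 734 reads in ethanol-exposed and 358 to 689 in control mice, where Tbx3 had 320 to 631 and 936 to 1412. Since the use of strand in counting is not given in the sources used here, reads of this pair cannot be told apart.

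The other 4 members encode transporters, an enzyme and a secreted protein of hepatocytes, and Slc1a2 alone passed the test. Slc1a2 (ENSMUSG00000005089, chromosome 2, 102489004 to 102621129) encodes a glutamate transporter of the pericentral hepatocytes that make glutamine. It was at 203.1, 180.0 and 150.1 CPM in ethanol-exposed mice and at 53.9, 93.5 and 111.0 CPM in control mice. All ethanol-exposed mice were above all control mice, and control replicate 1 was by far the lowest. Slc1a2 rose 2.06-fold (log2FC 1.05 ± 0.26 SE, edgeR adjusted p = 0.0165), just past the fold threshold. The call was lost without control replicate 1 (log2FC 0.79), control replicate 2 (adjusted p = 0.0504) or ethanol replicate 1 (0.0613), and the log2 fold change was 0.38 with library size alone. On the FPKM scale, which carries no TMM factor, the groups of Slc1a2 overlapped (8.19 to 11.2 against 4.86 to 9.94 FPKM).

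Oat (ENSMUSG00000030934, chromosome 7, 132159207 to 132178127), ornithine aminotransferase, was at 1433, 1254 and 894.4 CPM in ethanol-exposed mice and at 604.9, 799.8 and 939.8 CPM in control mice. Ethanol replicate 3 lay among the control mice. The log2 fold change of 0.61 ± 0.22 (SE, edgeR adjusted p = 0.0623) did not pass, while without ethanol replicate 3 it was 0.79 with an adjusted p of 0.00870. With library size alone it was -0.05. The deposited interval of Fgfr2 on the same strand contains Oat, but only 486 to 2725 reads were counted on Fgfr2, against 48806 to 82457 on Oat.

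Rhbg (ENSMUSG00000104445, chromosome 3, 88150181 to 88162016) encodes an ammonium channel of the same cells. It was at 16.1, 9.91 and 18.6 CPM in ethanol-exposed mice and at 6.95, 14.4 and 14.9 CPM in control mice. The groups overlapped and each varied widely, and the log2 fold change was 0.30 ± 0.34 (SE, edgeR adjusted p = 0.501). Lect2 (ENSMUSG00000021539, chromosome 13, 56690277 to 56696315), a protein that hepatocytes secrete, was at 67.8, 58.8 and 50.5 CPM in ethanol-exposed mice and at 41.6, 62.4 and 66.8 CPM in control mice, again with overlap. Its log2 fold change was 0.05 ± 0.20 (SE, edgeR adjusted p = 0.846). The sign was not stable for Lect2, at -0.61 with library size alone (adjusted p = 0.0353) and -0.19 with the length trend removed. For Lgr5, Oat, Slc1a2, Rhbg and Lect2 the lowest control mouse was control replicate 1.

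**Figure D2:**
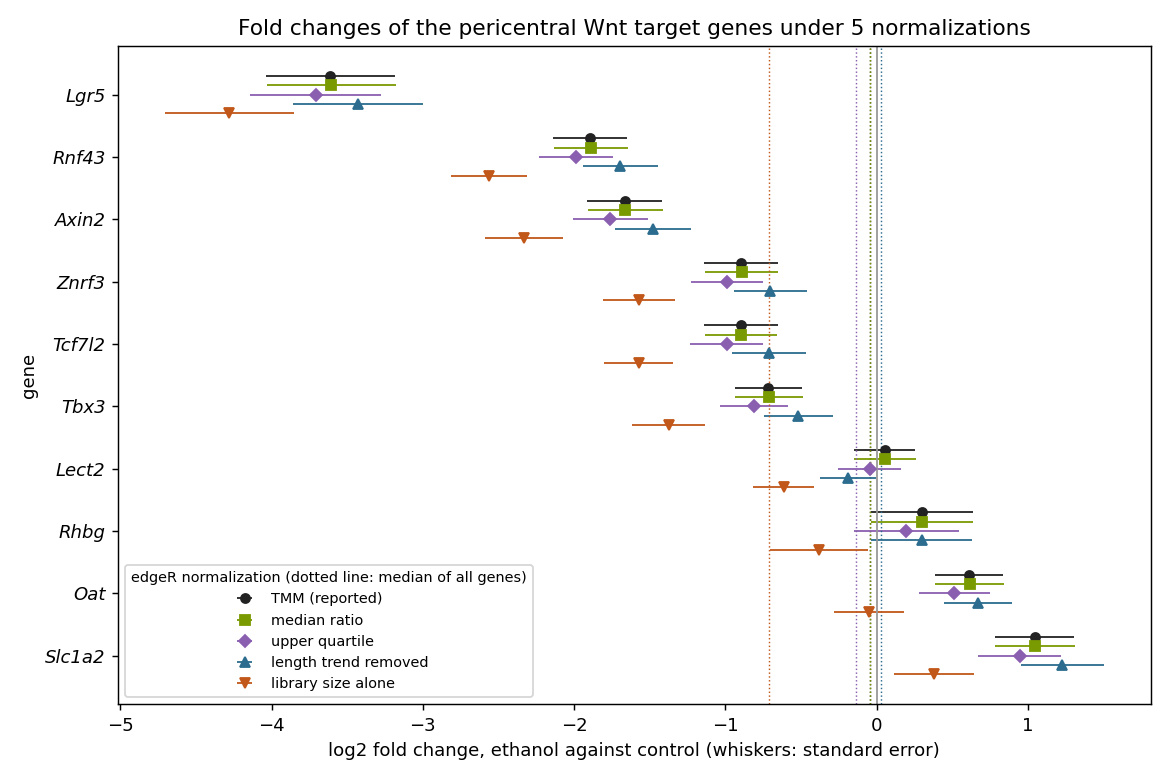
Log2 fold change (ethanol-exposed against control mice) of each gene in edgeR with TMM, 3 other scalings or the length trend removed, with standard errors as whiskers and the median of all genes in each fit as a dotted line in the same colour. Lgr5, Rnf43 and Axin2 lie below -1 in all 5 fits, while Oat, Rhbg and Lect2 change sign between TMM and library size alone.

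The plot of fold changes by scaling sets the members against the shift of all genes. Lgr5, Rnf43 and Axin2 were DEGs in edgeR with TMM, with the 3 other scalings and with the length trend removed. Library size alone lowered the members together with the median of all genes, and made Znrf3 (-1.57), Tcf7l2 (-1.57) and Tbx3 (-1.38) DEGs as well, where 32.2% of all genes were called lower instead of 13.8%. Removing each library's trend with transcript length, an alternative chosen after seeing the data, left these 3 genes at -0.70, -0.71 and -0.52 with an adjusted p of 0.0512, 0.0515 and 0.108.

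Levels per transcript length were compared on the deposited FPKM. In control mice Oat was highest at 390.4 ± 83.0 FPKM (SD, n = 3), followed by Lect2 at 73.0 ± 17.1, Slc1a2 at 7.73 ± 2.61, Rhbg at 7.34 ± 2.69, Rnf43 at 2.97 ± 0.104, Tbx3 at 2.47 ± 0.261, Tcf7l2 at 1.56 ± 0.109, Lgr5 at 1.09 ± 0.265, Znrf3 at 1.09 ± 0.240 and Axin2 at 0.890 ± 0.0427. Neighbours in this order overlapped for Slc1a2 and Rhbg, Lgr5 and Znrf3, and Znrf3 and Axin2, and were apart elsewhere. In ethanol-exposed mice the first 4 places were the same and Lgr5 took the last one, at 0.0541 ± 0.0308 FPKM below Axin2 at 0.176 ± 0.0433 FPKM. The mean FPKM of Lgr5 was 20.1-fold lower than in control mice, a larger ratio than on the TMM scale. Tbx3, Tcf7l2, Rnf43 and Znrf3 overlapped from each place to the next in ethanol-exposed mice. On this scale 57.4% of all genes tested were lower in ethanol-exposed mice without overlap, and 7 of the members were, the 6 above and Lect2, which was at 53.4, 49.9 and 39.4 FPKM in ethanol-exposed and 53.6, 80.0 and 85.5 FPKM in control mice. Higher without overlap on this scale were 9.45% of all genes and 0 members.

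The 6 lower members were the 6 with the lowest FPKM in control mice, all under 3 FPKM, whereas Oat, Lect2, Slc1a2 and Rhbg were above 7 FPKM. Among all tested genes with 0.5 to 3 FPKM in control mice, 27.6% were lower at an adjusted p under 0.05, and among those with at least 7 FPKM 19.5% were. The part of expression level in the split among the members was not tested.

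**Figure D3:**
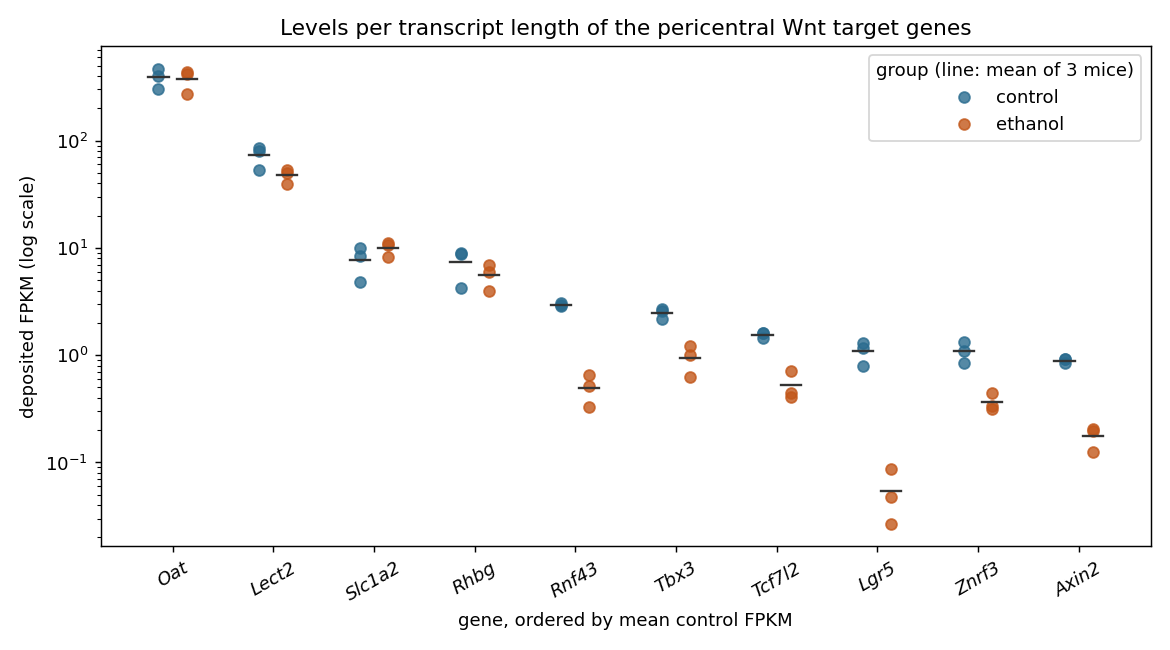
Deposited FPKM (log scale) of the 10 genes in each control and ethanol-exposed mouse, ordered by the control mean, with lines at the group means. The means of Lgr5 are furthest apart, 0.0541 and 1.09 FPKM, and the groups overlap for Oat, Slc1a2 and Rhbg.

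Upstream of these targets, 23 ligand genes were listed, of which 10 could be tested. With TMM scaling the central vein ligands Wnt2, Wnt9b and Rspo3 were not DEGs. Wnt2 was at 1.34, 1.65 and 1.41 CPM in ethanol-exposed and 2.09, 1.21 and 2.16 CPM in control mice (adjusted p = 0.441, edgeR), and Rspo3 at 2.57, 2.34 and 5.42 against 3.63, 4.45 and 3.95 CPM (adjusted p = 0.632). Rspo3 was highest in ethanol replicate 3, without which it was lower in the other 2 (log2FC -0.70, adjusted p = 0.0216). Wnt9b had 0.382, 0.491 and 1.03 against 0.948, 1.86 and 2.28 CPM, a log2 fold change of -1.42 that did not pass (adjusted p = 0.0549), but passed without ethanol replicate 3 (-1.95, adjusted p = 0.0105) or control replicate 1 (-1.72, adjusted p = 0.0469). It was also a DEG with upper quartile scaling (-1.53), library size alone (-2.10), DESeq2 (-1.46) and limma on log2(FPKM + 0.1) (-1.40), and with the replicate number as a block (-1.46). The 3 upregulated ligands were Wnt11, Wnt4 (1.52) and Wnt5a (1.00). Wnt4 was no DEG with library size alone (0.86) or limma on log2(FPKM + 0.1) (0.66). With limma on log2(FPKM + 1) neither Wnt4 (0.24) nor Wnt11 (0.89) was a DEG. Wnt5a lay at the fold threshold with overlapping FPKM groups, and it lost its call without ethanol replicate 1, ethanol replicate 3, control replicate 1 or control replicate 2, which left 2 upregulated ligands. Wnt11 had 472, 316 and 114 reads in ethanol-exposed and 4, 0 and 4 reads in control mice.

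Of 17 receptor genes 12 were tested. Lrp6, a Wnt co-receptor, rose from 44.5 ± 5.68 to 88.9 ± 5.98 CPM (SD, n = 3 per group) (log2FC 1.00, edgeR adjusted p = 0.00109), and was no DEG without ethanol replicate 2 (0.95), control replicate 2 (0.96) or control replicate 3 (0.93), with DESeq2 (0.97), upper quartile scaling (0.91) or library size alone (0.34), or with 4 further settings. Its FPKM groups overlapped. Fzd6 rose by 1.62 and Fzd7 fell by 1.11 on the log2 scale. With library size alone or limma on log2(FPKM + 1), no receptor gene was upregulated. Fzd7 was at -0.93 with the length trend removed, short of the fold threshold. Lgr4, the other R-spondin receptor of hepatocytes, was at 32.1, 27.0 and 32.5 CPM in ethanol-exposed and 41.2, 35.8 and 33.7 CPM in control mice (log2 fold change -0.27, adjusted p = 0.120). It passed the adjusted p, but not the fold threshold, with library size alone (-0.945, edgeR adjusted p = 0.000679) and upper quartile scaling (-0.37, edgeR adjusted p = 0.0448). This also held at a mean FPKM of at least 1 (-0.37) and with limma on log2(FPKM + 1) or log2(FPKM + 0.1) (-0.79 and -0.93). Whether Lgr4 and Lgr5 differ in their change was not tested. In the list of beta-catenin and its destruction complex (17 of 18 tested), Ctnnb1, the gene of beta-catenin itself, was the only downregulated gene with TMM scaling. It had 33.5, 43.9 and 74.4 CPM in ethanol-exposed and 167.3, 150.2 and 146.1 CPM in control mice, with ethanol replicate 3 the nearest to the control mice (log2FC -1.61 ± 0.28 SE, edgeR adjusted p = 0.00382). Amer1, a partner of Apc in the complex, had 9, 0 and 63 reads in ethanol-exposed and 405, 223 and 284 reads in control mice without passing (adjusted p = 0.0594), and it was a DEG without ethanol replicate 2 (0.0448) or ethanol replicate 3 (0.000744). Amer1 and Btrc were DEGs with library size alone. Apc2, with 0 reads in each ethanol-exposed and 36, 8 and 17 reads in control mice, did not pass the filter on low counts. It was called lower with no filter (edgeR adjusted p = 0.0235), by DESeq2 (0.00167) and without control replicate 2 (edgeR, 0.0314). Apc2 was also called lower without any 1 ethanol-exposed mouse, when 3 genes of this list were downregulated. Csnk1e was upregulated, but not without control replicate 1 (adjusted p = 0.0545), with library size alone (0.0896) or with limma on log2(FPKM + 1) or log2(FPKM + 0.1) (0.152 and 0.160), and Apc was at -0.32 (adjusted p = 0.0914).

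Of 15 genes for TCF/LEF factors and nuclear cofactors 13 were tested, and only the corepressor genes Tle3 (log2 fold change 2.38, adjusted p = 8.87e-05, edgeR) and Tle1 (1.25) were DEGs, both upregulated. Tle1 was no DEG with library size alone (0.58) or with limma on log2(FPKM + 1) or log2(FPKM + 0.1) (0.48 and 0.53). Among 10 tested genes of antagonists and other feedback targets, the Wnt targets Nkd1 (-1.06, adjusted p = 0.0101) and Sp5 (-1.80, adjusted p = 0.0272) were downregulated. Nkd1 lost its call without control replicate 2 (-0.99) or control replicate 3 (-0.94), and Sp5, with 8 to 31 reads in ethanol-exposed and 76 to 115 in control mice, lost its own without either of them (adjusted p = 0.0795 and 0.104) or without ethanol replicate 1 (0.0797). Neither was a DEG with limma on log2(FPKM + 1) (-0.74 and -0.54). Nkd1 was also no DEG with the length trend removed (-0.89). For Sp5 this held with the replicate number as a block (edgeR adjusted p = 0.0593). Ccnd1, a target of the same list, was at -0.84 without passing (edgeR adjusted p = 0.137). It was a downregulated DEG with library size alone (-1.52), limma on log2(FPKM + 1) (-1.075) or log2(FPKM + 0.1) (-1.57), and without ethanol replicate 3 (-1.46). The inhibitor genes Kremen1 (log2FC 0.81, edgeR adjusted p = 0.00172) and Notum (0.33, adjusted p = 0.0289) were higher, though Notum was at -0.34 and Kremen1 at 0.15 with library size alone. Myc was upregulated (3.52), with 48.4, 54.9 and 6.98 CPM in ethanol-exposed mice against 2.81 to 3.49 CPM in control mice, so that ethanol replicate 3 was far below the other 2. Together the 5 Wnt pathway lists, which share no gene with the members, gave 9 upregulated and 4 downregulated DEGs among 62 genes tested, where 10.4% and 13.8% of all genes were called. The counts were 3 and 12 with library size alone, where 5.06% and 32.2% of all genes were called, and 8 and 9 without ethanol replicate 3, where 10.9% and 16.5% were.

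Other pericentral genes were compared with the members by position in the lobule. Of 18, all tested, Cyp2e1 and Ahr were upregulated (background 10.4%) and Cldn2 was downregulated (background 13.8%). Cldn2 was at -1.03, but at -0.95, -0.93 and -0.98 without ethanol replicate 1, ethanol replicate 3 or control replicate 1. With library size alone or limma on log2(FPKM + 1), no gene of this list was upregulated. The TMM-scaled median log2FC was 0.25 against -0.81 for the members. This list was drawn by position and not by Wnt dependence. It holds genes of glutamine synthesis and drug metabolism, which belong to the same pericentral program. A difference between the lists was not tested. Glul, glutamine synthetase and the best known pericentral marker, was at 615.7, 538.9 and 574.2 CPM in ethanol-exposed and 404.2, 652.5 and 798.5 CPM in control mice. The ethanol-exposed mice lay within the range of the control mice (log2 fold change -0.10, adjusted p = 0.748, edgeR). Glul was lower with library size alone (-0.77, edgeR adjusted p = 0.0256), short of the fold threshold. The same held with limma on log2(FPKM + 1) (-0.72, limma adjusted p = 0.0353) or log2(FPKM + 0.1) (-0.72, limma adjusted p = 0.0326). Cyp2e1, which oxidises ethanol, rose by 1.45 on the log2 scale, to 9953 ± 1060 CPM from 3633 ± 133.0 CPM (SD, n = 3 per group), but by 0.79 with library size alone and 0.78 with limma on either FPKM scale, short of the fold threshold. Of 16 periportal genes, all tested, 4 were upregulated (background 10.4%), among them Sds (3.69), Hsd17b13 and Pck1. Only Aldh1b1 was downregulated (background 13.8%).

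**Figure D4:**
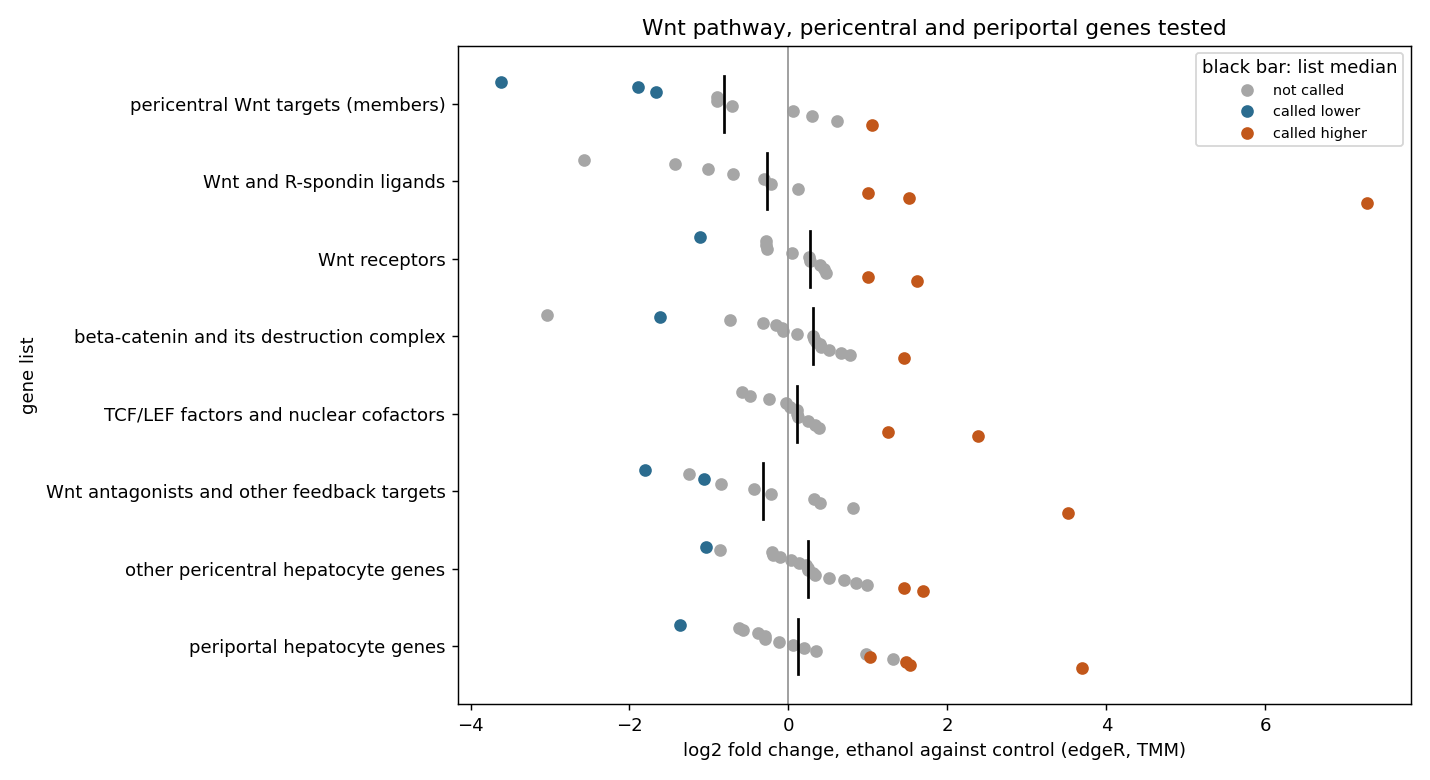
Log2 fold change (edgeR, TMM) of every tested gene in the members' list and 7 other lists, coloured by whether it was a DEG, with the median of each list as a black bar. The members have the lowest median, -0.81, and the other medians lie between -0.33 and 0.31.

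The genes closest to Axin2 in their profile over the 6 libraries were ENSMUSG00000121497, Tmem209 and Tmtc3, whose centred log2 CPM differed from that of Axin2 by a root mean square of 0.067, 0.080 and 0.082. For Lgr5, the member with the smallest adjusted p, they were Idi1-ps1 (0.29), 6430511E19Rik (0.33) and Gm16731 (0.35). All 6 were lower in ethanol-exposed mice without overlap, as this measure implies. The genes closest to Lgr5 were several times further from it than those closest to Axin2 were from Axin2. Of the former, 6430511E19Rik rested on 3, 2 and 1 reads in ethanol-exposed mice.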

How the data were processed

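Liver RNA of 6 mice was sequenced on an Illumina NovaSeq platform, and libraries were grouped by their titles. The authors deposited whole-number read counts per gene, not normalized, and FPKM values scaled to transcript length and library size. Aligner, counting software and use of strand are not given in the sources used here. The submitters' processing notes name GRCm38 and mm10, but 0 of the 10 members have the coordinates of GRCm38 in GENCODE M21, so gene positions are those of the table and only the promoters refer to GRCm38.p6. The table also holds 1 column of counts that matches no sample here, which was not used.

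Counts were filtered with filterByExpr, normalized by TMM and tested with edgeR 4.0.16 (limma 3.58.1, DESeq2 1.42.0, R 4.3.3) without covariates, after a test on simulated data. With 3 mice per group the common biological coefficient of variation was 0.299, and low genes also rest on few reads (23 to 72 for Lgr5 in ethanol-exposed mice). No pair of replicates agreed within counting noise, so each was counted as its own sample. The members and gene lists were chosen with earlier results of these data known. Named genes are the members, the 2 DEGs with the smallest adjusted p in each list and 9 genes fixed by name. Other genes of a list were named after their values were seen. Of the genes this rule names, 1 is not reported here. Alternatives were 3 other scalings, 2 other filters, DESeq2, limma on FPKM with pseudocounts of 1 and 0.1, the replicate number as a block, each library left out, and, chosen after seeing the data, removal of the length trend.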

Additional observations from a re-analysis of the deposited data

How the results depend on the processing

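Lgr5, Rnf43 and Axin2 kept their direction under every alternative in which they were tested, and lost a call only with limma on log2(FPKM + 1), whose pseudocount compresses low genes, where Axin2 was at -0.69 and Lgr5 at -0.98. The counts of members and the signs of Oat, Rhbg and Lect2 depended on the scaling. With library size alone, which called 32.2% of all genes lower against 13.8% with TMM, 6 members were downregulated and 0 upregulated, 0 were higher by adjusted p alone, the median was -1.47, and Oat, Rhbg and Lect2 were at -0.053, -0.38 and -0.61. With limma on log2(FPKM + 0.1), which called 29.7% of all genes lower and 4.40% higher, these values were 6, 0, 0, -1.34, -0.065, -0.34 and -0.60. With limma on log2(FPKM + 1), which called 10.2% lower and 2.44% higher, they were 1, 0, 0, -0.65, -0.065, -0.30 and -0.59. Upper quartile scaling gave 0 upregulated members, where 9.01% of all genes were upregulated, with Lect2 at -0.046. At a mean FPKM of at least 1, which leaves 7 members to test, 1 was downregulated and 0 upregulated, where 12.1% and 10.6% of all genes were. By adjusted p 3 were lower there, with a median of -0.053, the value of Lect2. DESeq2 placed 2 members higher by adjusted p alone. With the length trend removed 2 were higher and 3 lower by adjusted p, the median was -0.61, Lect2 was at -0.19 and Glul at 0.056. By adjusted p alone, 21.5% of all genes were lower and 21.5% higher in edgeR with TMM on all 6 libraries. For other settings, including left-out libraries and the block, this share is not given. Their counts by adjusted p alone therefore have no matching background here.

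Leaving out each library in turn gave 0 to 1 upregulated members, 3 to 4 downregulated, 0 to 2 higher and 3 to 6 lower by adjusted p, and a median of -0.88 to -0.67. Of all genes, 8.57% to 10.9% were then upregulated and 9.88% to 16.5% downregulated. Lect2 ranged from -0.13 (without control replicate 1) to 0.18, with -0.060 without ethanol replicate 1, and Glul at 0.12 without control replicate 3. The lists, upregulated and downregulated, then gave 2 to 3 and 0 to 2 ligands, 1 to 2 and 1 to 1 receptors, 0 to 1 and 1 to 3 destruction complex genes, 2 to 2 and 0 to 1 nuclear factors, 1 to 1 and 0 to 3 antagonists and targets, 2 to 3 and 0 to 1 pericentral genes, and 3 to 6 and 1 to 1 periportal genes. With library size alone the lists had 1 upregulated and 3 downregulated ligands, 0 upregulated receptors, 0 and 3 destruction complex genes, 1 and 2 nuclear factors, 0 upregulated pericentral genes, and 1 and 4 periportal genes. With limma on log2(FPKM + 1) they had 0 upregulated ligands, receptors, destruction complex genes and pericentral genes. They also had 1 upregulated nuclear factor, 1 downregulated gene among antagonists and targets (Ccnd1), and 1 and 3 periportal genes. With the length trend removed 2 antagonists and targets were upregulated and 1 downregulated, and 0 receptors and pericentral genes were downregulated. Apart from what the construction of a setting shows, the cause was not tested.

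With the replicate number as a block, 3 members were downregulated and 1 upregulated, as without it, where 12.0% and 9.08% of all genes were. However, 5 members in place of 6 were lower by adjusted p, since Tbx3 did not pass (edgeR adjusted p = 0.0578). In the lists, 1 ligand, 2 destruction complex genes and 1 antagonist were downregulated. The numbers share no stated origin, and the deviations of same-numbered mice correlated at -0.0415, -0.0267 and -0.00753, so they do not pair the mice. With 3 mice per group, outlying libraries were not tested.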
